A study of Mus musculus with 4 samples.

Results

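Rag1, Rag2, Dntt, Ptcra, Cd79a, Cd79b, Ebf1, Pax5 and Ms4a1 are genes of antigen receptor assembly and of the B lineage. These 9 genes were read by symbol, from a list with no threshold on measured values, out of 49490 genes in the authors' table. The table covers polyadenylated RNA in 4 libraries of activated mouse CD8+ T cells, which came from spleen and lymph node. A group of 2 libraries is labelled WT and carries floxed Irf8 alleles (Irf8fl/fl), and a group of 2 is labelled Irf8 knockout (Irf8-/-). All 4 cultures were activated in vitro, and the sources used here give no strain, age, Cre driver or number of animals. The libraries held 58899365 to 59724952 reads assigned to genes. At that depth a count of 0 allows a true level of up to 3 reads per library, counting error only.

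V(D)J recombination builds the genes of antigen receptors in developing lymphocytes. RAG1 and RAG2 together form the recombinase that cuts the DNA, and terminal deoxynucleotidyl transferase, the product of Dntt, adds untemplated bases where the ends are joined. The pre-T cell receptor alpha chain (Ptcra) pairs with a new T cell receptor beta chain in the thymus, and CD79A and CD79B form the signalling pair of the B cell receptor. EBF1 and PAX5 are the transcription factors that commit cells to the B lineage, and Ms4a1 encodes CD20 of mature B cells. Plasmacytoid dendritic cells, the interferon-producing dendritic cells that depend on the E protein TCF4, are known to express Ptcra and often Dntt, and many of them descend from cells that once transcribed the Rag genes. Peripheral CD8+ T cells have completed recombination and keep both Rag genes silent.

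The promoter windows of Dntt and Ptcra, which were raised together, are shown beside those of Rag1 and Cd79a, which were not called. They are the 250 bases upstream of the RefSeq start sites in GRCm38.p6, the assembly that mm10 denotes, 5′ to 3′ on the gene's strand. Capitals mark E-boxes, the letters CANNTG that E proteins such as TCF4 and TCF3 bind. The windows lie at chr19:41029025-41029274 on the plus strand for Dntt, chr17:46763713-46763962 on the minus strand for Ptcra, chr2:101649533-101649782 on the minus strand for Rag1 and chr7:24897247-24897496 on the plus strand for Cd79a.
Dntt: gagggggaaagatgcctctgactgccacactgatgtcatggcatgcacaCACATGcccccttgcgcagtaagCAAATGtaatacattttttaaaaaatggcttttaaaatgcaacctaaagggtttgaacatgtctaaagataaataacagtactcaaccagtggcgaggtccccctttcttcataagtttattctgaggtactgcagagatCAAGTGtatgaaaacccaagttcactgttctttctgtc
Ptcra: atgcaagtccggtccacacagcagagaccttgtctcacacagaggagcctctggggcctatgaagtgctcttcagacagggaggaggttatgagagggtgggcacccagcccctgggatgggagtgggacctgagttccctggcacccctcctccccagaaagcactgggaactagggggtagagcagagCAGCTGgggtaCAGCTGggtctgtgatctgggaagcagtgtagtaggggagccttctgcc
Rag1: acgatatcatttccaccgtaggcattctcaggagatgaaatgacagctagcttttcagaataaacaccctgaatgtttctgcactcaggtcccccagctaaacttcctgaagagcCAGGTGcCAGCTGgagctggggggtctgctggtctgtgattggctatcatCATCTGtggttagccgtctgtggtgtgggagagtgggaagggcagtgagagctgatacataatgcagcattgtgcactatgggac
Cd79a: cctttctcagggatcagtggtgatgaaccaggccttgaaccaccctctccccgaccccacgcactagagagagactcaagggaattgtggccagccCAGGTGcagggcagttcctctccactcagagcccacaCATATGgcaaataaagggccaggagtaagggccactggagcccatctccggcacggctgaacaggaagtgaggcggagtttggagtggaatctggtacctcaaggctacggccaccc
The Dntt window holds 3 E-boxes, Ptcra 2, Rag1 3 and Cd79a 2. Among the windows not shown, Rag2 and Pax5 hold 1 each, and the Ebf1 windows hold 0 and 1. Of 32851 RefSeq windows of this length, 66.2% hold at least 1 E-box and 12.2% hold 3 or more, so a match is common. The form CAGGTG, searched on both strands as CAGGTG or CACCTG, occurs in 17.2% of windows. It is present in Rag1, where its first base lies 135 bases upstream of the start site, and in Cd79a, 154 bases upstream, and neither Dntt nor Ptcra holds it. The EBF core CCCNNGGG, in 11.8% of windows, is found 1 time in Ptcra. The ETS letters GAGGAA or TTCCTC, in 23.3% of windows, are found 1 time each in Cd79a, Rag2 and 1 of the Ebf1 windows. The letters GAAANNGAA or TTCNNTTTC, read by interferon regulatory factors, occur in 7.13% of windows and in the other Ebf1 window. Windows were matched for 7 of the 9 genes, not for Cd79b and Ms4a1. Distances are counted from the RefSeq start sites, which can differ from the GENCODE gene bounds given below. The Cd79a window runs past the GENCODE start of the gene at 24897381, and both Ebf1 windows lie within the GENCODE bounds of Ebf1.

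Irf8, the targeted gene, was higher in the knockout-labelled libraries. Its normalized counts (reads divided by the authors' library factor) were 6364 and 6081 in the WT-labelled libraries and 89508 and 90222 in the knockout-labelled ones, so the groups did not overlap. This goes against the labels, though a count per gene does not show which part of the gene the reads cover. The reason for the Irf8 difference was not tested. The groups are called by their labels, with every difference given as labelled knockout minus labelled WT. The genes that define T cells were present in all 4 libraries. Cd3e, a subunit of the CD3 complex, stood at a mean of 359 RPKM (reads per kilobase of exon per 1e6 reads, with exon lengths from GENCODE) in the WT-labelled libraries and 232 in the knockout-labelled libraries. Library-to-library spread within a group may be technical, since the labels do not give separate animals, and p-values measure only that spread. In bulk RNA, fewer cells of a type and less RNA per cell cannot be told apart.

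Dntt, Ptcra, Cd79b and Ebf1 were higher in the knockout-labelled libraries, Cd79a and Ms4a1 did not pass the test, and Rag1, Rag2 and Pax5 had too few reads to be tested. A gene was tested where at least 2 libraries had a normalized count of at least 10, and 6 of the 9 genes met this. Ptcra and Ebf1 met it only through the knockout-labelled libraries, so that they could only come out as higher there. The test was limma on log2(normalized count + 1), with p-values adjusted over all 18378 genes tested and a threshold of 0.05. It called 4 of the 6 tested genes higher and 0 lower, where 19.9% of all genes tested were called higher, 13.4% lower and 33.4% in either direction. With the libraries scaled to equal medians, the median difference of all genes went from 0.02 to -0.28 and the share of calls that were higher from 59.7% to 24.9%, which left the 4 calls in place. The groups did not overlap for those 4 genes, nor for 68.8% of all genes tested.

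**Figure D1:**
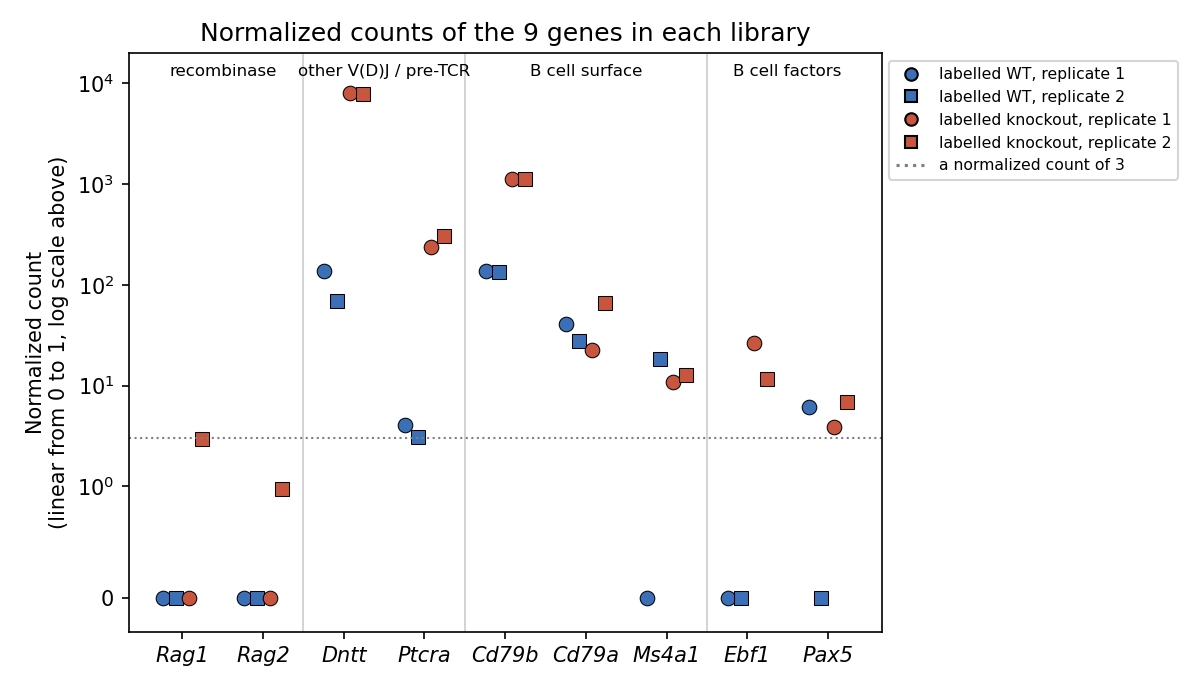
Normalized counts of the 9 genes (y axis, linear from 0 to 1 and log-scaled above) in each of the 4 libraries (points; colour for the label, shape for the replicate number). The red points of Dntt, Ptcra and Cd79b lie well above the blue ones, while Rag1 and Rag2 lie at or near 0 in all 4 libraries.

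Rag1 and Rag2, the recombinase genes, were nearly without reads. Rag1 (ENSMUSG00000061311.6, chromosome 2, 101638282 to 101649501, minus strand, mm10) had 0 reads in both WT-labelled libraries and 0 and 3 reads in the knockout-labelled libraries. Rag2 (chromosome 2, 101624718 to 101632529, plus strand) had 0 reads in both WT-labelled libraries and 0 and 1 in the others. Both genes were at or under the level that a count of 0 allows in every library, so expression was not detectable at this depth in either group and no fold is given. With no filter on low values, limma gave Rag1 an adjusted p of 0.525 and Rag2 one of 0.686.

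The gene that shares the Rag locus had more reads. B230118H07Rik, listed by RefSeq as Iftap with the synonym NWC, is a protein-coding gene on the strand of Rag1 that overlaps exons of both Rag genes. Its normalized counts were 18.3 and 6.13 in the WT-labelled libraries and 184 and 187 in the knockout-labelled ones, without overlap. The mean was 15.2-fold higher in the knockout-labelled libraries, with a log2 difference of 3.99 ± 0.50 (SE, n = 2 and 2) and a limma adjusted p of 0.00150. Per length it reached 0.742 and 0.753 RPKM there. Since B230118H07Rik and Rag1 lie on the same strand, strand cannot tell apart the reads in the exons they share. Rag2 lies on the opposite strand, but whether the counting used strand is not given in the sources used here. Traf6, the signalling adaptor gene on the other side of Rag1, lay 28.9 kb away and had a log2 difference of 0.10 ± 0.09 (SE), which did not pass (limma adjusted p = 0.412).

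Dntt had the highest level of the 9 genes in the knockout-labelled libraries. Dntt (ENSMUSG00000025014.13, chromosome 19, 41029275 to 41059525, plus strand) stood at 138 and 69.4 normalized counts in the WT-labelled libraries against 8005 and 7844 in the knockout-labelled ones. The knockout-labelled values lay close to each other and far above both WT-labelled values, which themselves differed about as 136 reads to 68. The group means were 104 ± 48.8 and 7925 ± 114 (SD, n = 2 each), a 76.3-fold difference, and the log2 difference was 6.32 ± 0.34 (SE) with a limma adjusted p of 2.98e-04. Of the genes tested, 0.789% had a larger increase. Per length, Dntt rose from 0.752 to 59.7 RPKM. It then stood above 96.1% of genes with any reads in the knockout-labelled libraries, against 48.3% in the WT-labelled ones. In knockout-labelled replicate 2, the only library with Rag1 reads, 8059 reads of Dntt stood beside 3 of Rag1.

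Ptcra, the pre-T cell receptor chain, showed nearly the same fold from a far lower level. Ptcra (ENSMUSG00000036858.8, chromosome 17, 46755663 to 46763712, minus strand) had 4 and 3 reads in the WT-labelled libraries and 245 and 312 in the knockout-labelled libraries. As normalized counts these were 4.07 and 3.06 against 240 and 304. The means differed 76.2-fold, a ratio that rests on 7 WT-labelled reads and has a 95% counting interval of 36.8 to 190. The log2 difference was 5.90 ± 0.35 (SE, n = 2 and 2) with a limma adjusted p of 5.92e-05. The ratio of Dntt to Ptcra per length was 19.0 and 12.7 in the WT-labelled libraries and 18.7 and 14.5 in the knockout-labelled libraries, so the ranges overlapped. Among genes beside Ptcra, Gm26904, a noncoding gene on the opposite strand, overlaps it outside its exons and had a log2 difference of -0.07 (limma adjusted p = 0.928).

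CD79B and CD79A work as a pair in the B cell receptor, and Cd79b passed the test while Cd79a did not. Cd79b (ENSMUSG00000040592.11, chromosome 11, 106311341 to 106314762, minus strand) stood at 138 and 134 normalized counts in the WT-labelled libraries and 1112 and 1113 in the knockout-labelled ones. The spread within each group was small, and the means of 136 ± 3.28 and 1112 ± 0.329 (SD, n = 2 each) differed 8.17-fold. The log2 difference was 3.02 ± 0.12 (SE), with a limma adjusted p of 1.03e-05. Cd79a (ENSMUSG00000003379.7, chromosome 7, 24897381 to 24902197, plus strand) had 40.7 and 27.6 in the WT-labelled libraries against 22.5 and 66.2. The knockout-labelled values lay on both sides of the WT-labelled ones, and the log2 difference of 0.20 (95% interval -1.14 to 1.55) did not pass the test (limma adjusted p = 0.810). Its interval ends below the Cd79b interval, which runs from 2.74 to 3.31. The difference between the genes' changes was not tested in a model of its own. Per length, Cd79b exceeded Cd79a 3.46-fold and 4.94-fold in the WT-labelled libraries and 50.2-fold and 17.1-fold in the knockout-labelled libraries. Without WT-labelled replicate 2 the Cd79a difference was -0.07, and without knockout-labelled replicate 2 it was -0.55, neither past the threshold.

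Ms4a1, which encodes CD20, was close to its detection limit in both groups. Ms4a1 (chromosome 19, 11249675 to 11266241, minus strand) had 0 and 18.4 normalized counts in the WT-labelled libraries and 10.8 and 12.7 in the knockout-labelled libraries. The groups overlapped, and the log2 difference of 1.53 (95% interval -1.89 to 4.94) did not pass (limma adjusted p = 0.453). That value turns on 1 library: without WT-labelled replicate 1, at 0 reads, it was -0.61 (adjusted p = 0.509), and without WT-labelled replicate 2 it was 3.66 (adjusted p = 0.0304).

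The B lineage factors were scarce. Ebf1 (ENSMUSG00000057098.14, chromosome 11, 44617317 to 45008091, plus strand) had 0 reads in both WT-labelled libraries and 27 and 12 reads in the knockout-labelled libraries, or 26.5 and 11.7 normalized counts. Its mean there was 6.23-fold the floor of 3 reads per library, with counting error of the knockout-labelled reads left out. Ebf1 had a log2 difference of 4.22 ± 1.02 (SE, n = 2 and 2), with a limma 95% interval of 1.74 to 6.70. Its limma adjusted p was 0.0219, and leaving out knockout-labelled replicate 1 or 2 ended the call (adjusted p = 0.396 and 0.226). Pax5 (chromosome 4, 44524757 to 44710487, minus strand) had 6 and 0 reads in the WT-labelled libraries and 4 and 7 in the knockout-labelled libraries, which overlap. The Pax5 ratio of means was 1.76, with a 95% counting interval of 0.595 to 5.78. The antisense genes annotated across Ebf1, Pax5 and Ms4a1 were at 0 reads in all 4 libraries. In RPKM, Ebf1 averaged 0.0338 and Pax5 0.0105 in the knockout-labelled libraries, against 59.7 for Dntt in the same libraries.

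**Figure D2:**
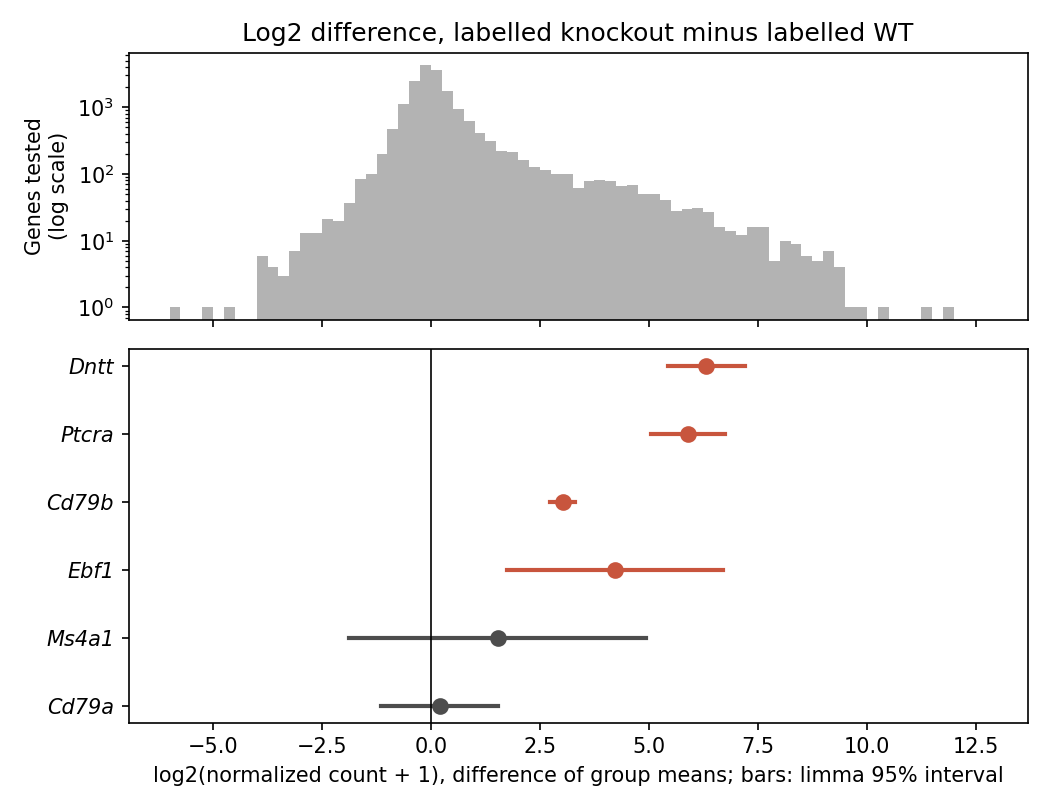
Upper panel, the number of genes tested (log scale) by log2 difference, labelled knockout minus labelled WT. Lower panel, the differences of the 6 tested genes on the same axis with limma 95% intervals, red where called; the intervals of Dntt (5.43 to 7.21) and Ptcra (5.06 to 6.74) lie in the right tail, and those of Ms4a1 and Cd79a include 0.

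Ordered by level per length in the knockout-labelled libraries, the genes ran Dntt (59.7 RPKM), Cd79b (13.4), Ptcra (3.66), Cd79a (0.526), Ebf1 (0.0338), Ms4a1 (0.0327), Pax5 (0.0105), Rag1 (0.00382) and Rag2 (0.00245). The libraries of that group gave the same order for the leading 4 genes. From Ebf1 downwards the values rest on at most 27 reads per library, and Ebf1 (0.0468 and 0.0207) and Ms4a1 (0.0301 and 0.0353) overlapped. In the WT-labelled libraries the order began with Cd79b (1.57), then Dntt (0.752) and Cd79a (0.388), and Dntt (1.01 and 0.497) and Cd79a (0.466 and 0.310) did not overlap but lay close together.

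**Figure D3:**
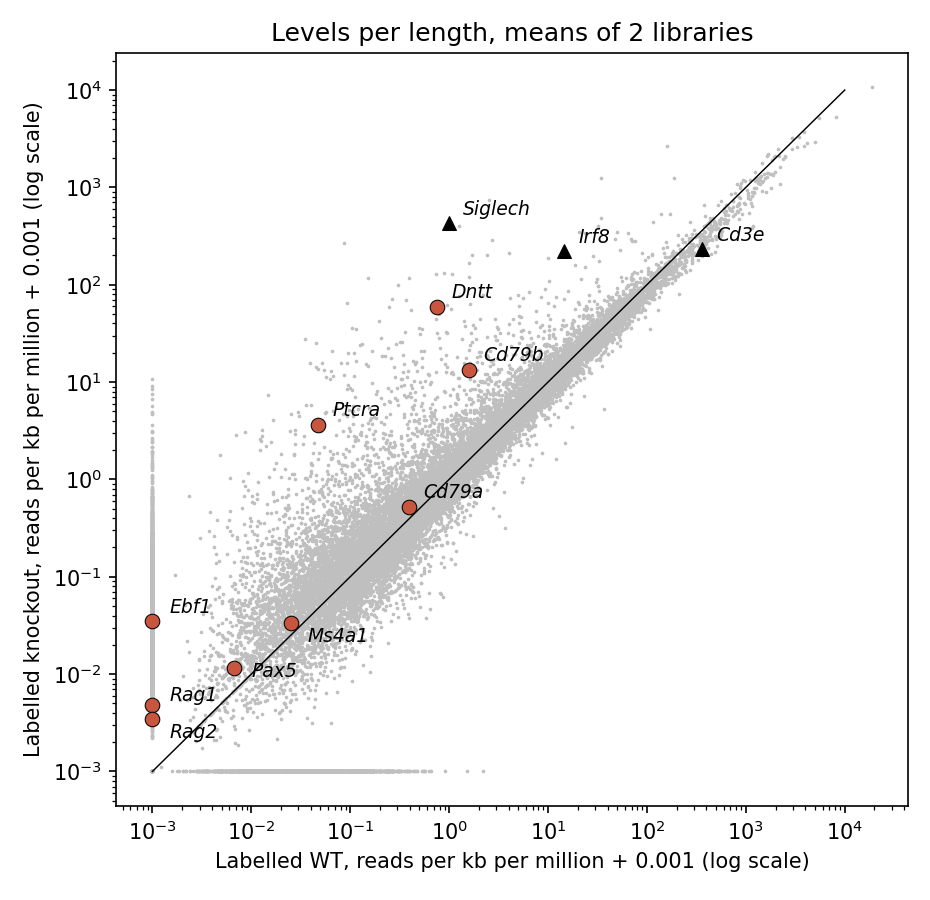
Mean RPKM plus 0.001 (both axes log-scaled) in the WT-labelled libraries (x) and labelled knockout (y); grey points are all genes with an annotated length, red circles the 9 genes, and black triangles Siglech, Irf8 and Cd3e for scale. Dntt, Cd79b and Ptcra lie above the line of equal level, Cd79a and Ms4a1 lie on or near it, and Rag1 and Rag2 sit at the lower left.

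The other genes of the joining step had smaller differences than Dntt. Of 14 listed genes that complete or assist V(D)J joining, 13 were in the table and tested, and 2 rose, 5 fell and 6 did not pass. Their median log2 difference was -0.12, against 0.02 over all genes tested. With median centring 9 fell, and without knockout-labelled replicate 1 or 2 the counts were 1 higher and 1 lower, and 1 higher and 2 lower. Dclre1c, whose product Artemis opens the hairpin ends that RAG leaves, had means of 1325 ± 79.0 and 3060 ± 102 (SD, n = 2 each) and rose 2.31-fold (limma adjusted p = 5.92e-05). Xrcc6, which encodes the end-binding protein Ku70, rose 1.47-fold, while its partner Xrcc5 (Ku80) fell by 0.42 on the log2 scale (limma adjusted p = 0.0235). Hmgb2, a DNA-bending cofactor of RAG, and Polm, the polymerase closest in kind to Dntt, fell by 0.40 and 0.41. Lig4, the ligase of the last step, had a log2 difference of -0.06 (limma adjusted p = 0.776).

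Regulators of early lymphoid cells were mostly higher. Of 17 listed, 16 were tested, of which 11 rose and 3 fell, with a median of 0.78. Tcf4 and Bcl11a are counted among the plasmacytoid dendritic cell markers below too. With median centring 6 fell, and without knockout-labelled replicate 1, 1 fell. Bcl11a, a zinc finger factor of lymphoid progenitors and plasmacytoid dendritic cells, rose 388-fold, and Tcf4, the E protein of the latter cells, went from 431 ± 67.5 to 28228 ± 105 (SD, n = 2 each), 65.6-fold higher. The smallest adjusted p among those that fell were those of Ikzf3 and Gfi1, which fell by 0.49 and 0.48. Tcf3, which encodes the E proteins E12 and E47, fell by 0.27. Erg was not tested, with 0 reads in the WT-labelled libraries and 3 and 5 in the others.

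Genes of the surrogate light chain, which stands in for the light chain in the pre-B cell receptor, had low values throughout. Vpreb2 was at 0 reads in all 4 libraries, and Igll1, not tested, had 0 reads in both WT-labelled libraries and 19 and 7 in the knockout-labelled libraries. Vpreb1 had normalized counts of 29.5 and 21.4 against 52.9 and 49.6, groups that did not overlap, and did not pass (limma adjusted p = 0.0681). Vpreb3, tested only through the knockout-labelled libraries, had 5.09 and 4.08 against 16.7 and 13.6. Its groups did not overlap either, and it did not pass (limma adjusted p = 0.120). Of the 7 genes of this list besides Rag1, Rag2 and Dntt, 5 were tested and 2 rose, Blnk and Cecr2. Blnk, the adaptor that links the B cell receptor to its kinases and lies 34.7 kb from Dntt, rose 178-fold, from 56.0 and 22.5 to 7020 and 6909 (limma adjusted p = 4.35e-04).

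Genes of B cell receptor signalling were mostly higher. Of 15 tested, 12 rose and 0 fell, with a median log2 difference of 1.30. Blnk is counted on the list above too, and Bank1, Blk, Cd22 and Cd72 among the mature B cell markers below. Syk, the kinase that binds phosphorylated CD79 tails, had means of 156 ± 11.2 and 7788 ± 252 (SD, n = 2 each) and rose 49.8-fold, and Lyn, the Src family kinase that starts this signal, rose 9.25-fold. Cd22, the inhibitory lectin of B cells, had a log2 difference of 0.04 (limma adjusted p = 0.915). Both kinases also act in myeloid and dendritic cells.

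Markers of other cells moved with the 4 genes that rose. Of 22 plasmacytoid dendritic cell markers, 20 rose and 1, Ly6c2, fell by 0.59 on the log2 scale, and Cobll1 had a log2 difference of -0.12, which did not pass. The median was 6.44, and the summed level went from 1409 and 1364 RPKM in the WT-labelled libraries to 3875 and 3828. Ly6c2, set apart after its values were seen, made up 84.4% and 84.0% of the WT-labelled sums. Without it the summed level of the other 21 markers was 219.7 and 218.9 RPKM against 3045 and 3036. Siglech, the sialic acid receptor that marks these cells in mice, rose 418-fold, Ccr9, a homing receptor they carry, rose 51.0-fold, and no marker of that list was at 0 in every library. Per length, Dntt was 0.974 and 0.528 of Siglech in the WT-labelled libraries and 0.140 and 0.137 in the knockout-labelled libraries. Of 16 mature B cell markers, 15 were tested and 9 rose and 0 fell, with a median of 1.91 and a summed level of 34.8 and 33.6 RPKM against 960 and 948. The largest increases of that list were in Spib (308-fold), Ly6d (279-fold) and Fcrla (256-fold). Spib and Ly6d stand on the plasmacytoid dendritic cell list too. Blk, tested only through the knockout-labelled libraries, rose 45.0-fold, from 0 and 5 reads to 120 and 115. Bank1 rose 7.11-fold, Ralgps2 3.69-fold, Tnfrsf13c 2.41-fold, Cd72 1.41-fold and Pou2f2 1.23-fold. These genes are not on the plasmacytoid dendritic cell list, but a chosen list cannot show that those cells lack them. Of the B cell markers tested, 6 did not pass. Spib, Ly6d and Fcrla, set apart after their values were seen, made up most of the knockout-labelled sums. The other 13 B cell markers summed to 31.0 and 31.2 RPKM against 47.8 and 48.2. Cd72 alone made up 20.9 and 21.3 RPKM of these sums against 30.6 and 31.5, so they say little of the markers at lower levels. Cr2, the complement receptor of mature B cells, had 0 and 4 reads against 0 and 8, and Fcer2a, the B cell Fc receptor CD23, had 0 and 6.13 normalized counts against 32.3 and 10.7 and did not pass (limma adjusted p = 0.108). Without knockout-labelled replicate 1, 5 of the B cell markers rose. The part of these cell types in the differences of Dntt, Ptcra, Cd79b and Ebf1 was not tested.

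Genes that accompany Ptcra in the thymus went in both directions. Of 16 pre-T cell receptor and Notch genes tested, 4 rose and 9 fell, with a median of -0.22. Without either knockout-labelled library the counts were 2 and 5. Cd4, the coreceptor of helper T cells, which plasmacytoid dendritic cells of mice also carry, rose 63.6-fold, and Arpp21, a gene of immature thymocytes, rose 4.05-fold from a mean of 100.4. Cd3e and Themis, which acts in thymocyte selection, fell by 0.69 and 0.76. Of 15 T cell identity genes, 14 fell and 0 rose, with a median of -0.63, and Trac had a log2 difference of -0.01. Cd3e and Lat stand on both lists. Cd3d and Cd3g had the smallest adjusted p among them and fell by 0.81 and 0.75.

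**Figure D4:**
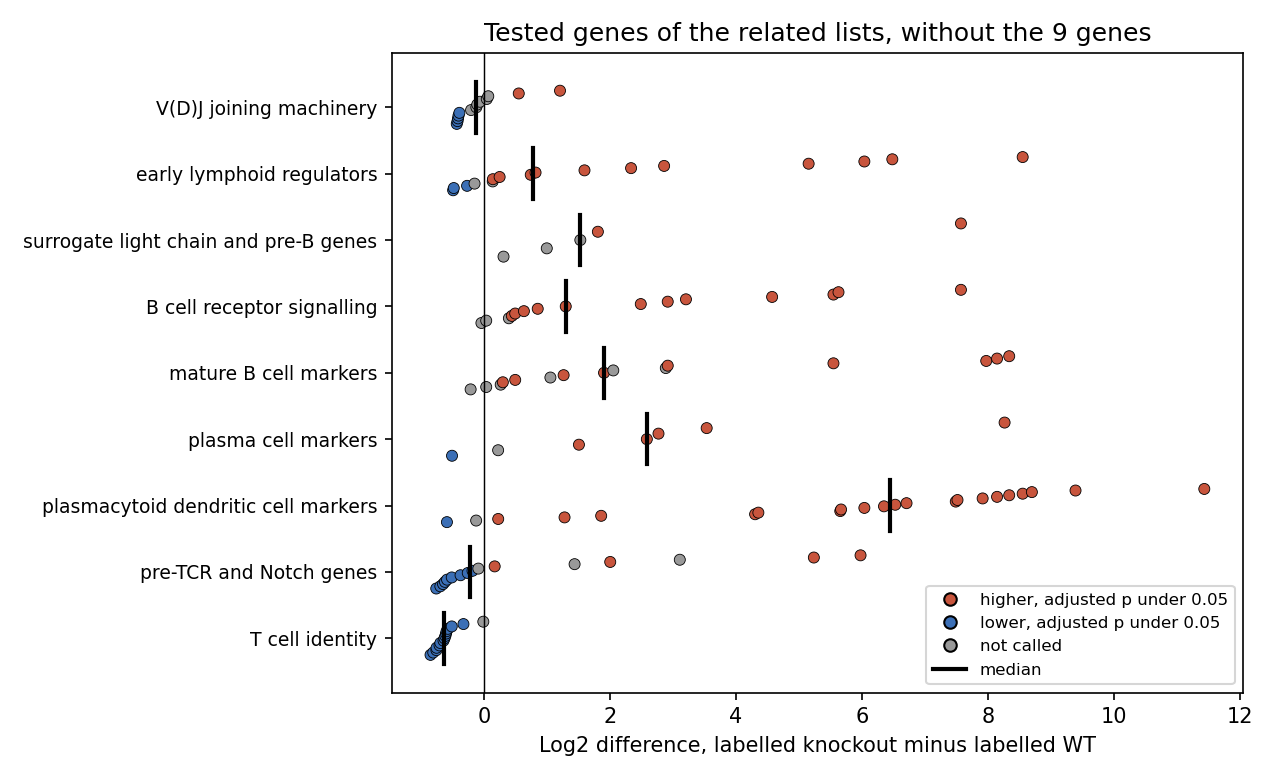
Log2 difference, labelled knockout minus labelled WT, of the tested genes of 9 related lists without the 9 genes themselves (points, red called higher, blue called lower, grey not called; black bars are list medians). Plasmacytoid dendritic cell markers have a median of 6.44, mature B cell markers one of 1.91, and V(D)J joining genes one of -0.12.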

How the data were processed

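RNA of 4 libraries was measured, 2 per genotype label, grouped and numbered by the sample titles. The authors deposited 1 table of normalized counts, a signal per gene and library that is not whole-numbered, with a log2 fold change of WT over knockout, its standard error, a Wald score, and raw and adjusted p-values, per the file headers. The submitters' processing notes name the build mm10 and the tools DESeq2, StringTie 2.1.4, HISAT2 2.2.1 and Trim Galore 0.4.4. Settings, annotation and strand use were not given in the sources used here. Each column held whole multiples of 1 step (100.0% of values within 0.01 reads), which gave back whole reads, 58899365 to 59724952 per library.

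The main test, limma 3.58.1 with trend and robust variance, took log2(normalized count + 1) of genes that reached 10 in 2 or more libraries. Count tests on the recovered reads (edgeR 4.0.16 with TMM factors, and DESeq2 1.42.0) were alternatives, beside other pseudocounts and filters, median centring, a replicate block and leaving out each library. On the + 1 scale fold changes of low genes are understated. Folds are ratios of group means, and counting intervals are exact conditional binomial intervals at 95%. Levels per length used GENCODE M21 exon unions, and names matched once for 95.2% of the table. The tests were tried on simulated data. The genes, the related lists and the naming rule were chosen with earlier results of these data known; the rule took the 9 genes, Irf8, overlapping and neighbouring genes, up to 2 genes per list and direction with the smallest adjusted p, and the genes nearest in level. Other genes were named after their values were seen, among them Cr2, Fcer2a, Cd22, Lig4, Trac, Tcf3, Xrcc5, Spib, Cobll1, Vpreb1, Igll1 and Erg. Blk, Bank1, Ralgps2, Tnfrsf13c, Cd72, Pou2f2 and Vpreb3 were named in this way too. Results of some genes taken by the rule are not reported here.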

Additional observations from a re-analysis of the deposited data

How the results depend on the processing

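Dntt, Ptcra and Cd79b were called higher under each of the 13 alternatives, with log2 differences of 5.83 to 6.81, 4.37 to 6.24 and 2.72 to 3.05. Ebf1 lost its call with a pseudocount of 0.1 (7.47, adjusted p = 0.146) and without either knockout-labelled library, and was not tested at a minimum of 50. With that minimum Cd79a and Ms4a1 were not tested either. Cd79a turned sign with median centring (-0.10), without WT-labelled replicate 2 (-0.07) and without knockout-labelled replicate 2 (-0.55), and Ms4a1 turned sign without WT-labelled replicate 1 (-0.61), none of these past the threshold. Over the libraries left out, Cd79a ranged from -0.55 to 0.96 and Ms4a1 from -0.61 to 3.66. Of the 9 genes, 3 to 5 were called higher and 0 lower over the alternatives.

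Over all genes, median centring gave 2389 higher and 7210 lower in place of 3662 and 2469. The share of calls that were higher was then 24.9% in place of 59.7%. Leaving out 1 library each gave 1309 to 4137 genes higher and 630 to 2759 lower, the low counts being those without knockout-labelled replicate 1 (1358 and 694) or 2 (1309 and 630). With a replicate block the counts were 3415 and 2168, and 4 of the 9 genes were called. The deviations of same-numbered libraries correlated at 0.02 over genes. With 2 libraries per group that value cannot show whether same-numbered libraries were paired, and the sample titles give only the number. On recovered reads, edgeR gave 3691 higher and 2652 lower, and called 4 of the 9 genes. Depth limits what can be said of Rag1, Rag2 and Pax5, which had at most 7 reads in any library.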

Other observations

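Among the genes nearest to each called gene in their 4 log2 values, by Euclidean distance over these 4 libraries, were Mef2c and Flt3 for Dntt, Nectin2 and Ttc39a for Ptcra, Eng for Cd79b, and Gpr33 and Ces2e for Ebf1. Mef2c, a transcription factor of lymphoid and myeloid cells, stood at 127 and 60.2 normalized counts in the WT-labelled libraries and 8262 and 7650 in the knockout-labelled ones, a distance of 0.242 from Dntt. Flt3, the receptor for the cytokine that drives dendritic cell development, had 99.7 and 78.6 against 7887 and 8148, a distance of 0.504. Nectin2 had 4.07 and 7.15 against 174 and 236, a distance of 1.16 from Ptcra.

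Of 8 genes listed as plasma cell markers, 7 were tested, 5 rose and Prdm1, a repressor of the B cell program, fell by 0.51 on the log2 scale. The list does not show which cells gave these reads, and the part of plasma cells was not tested. Mzb1, a chaperone of antibody assembly, stood at 5.09 and 10.2 normalized counts in the WT-labelled libraries and 2594 and 2495 in the knockout-labelled libraries, without overlap (limma adjusted p = 8.59e-06). Xbp1, a factor of secretory cells, rose 2.84-fold (limma adjusted p = 3.13e-06). Tnfrsf17, the receptor of long-lived plasma cells, was at 0 reads in all 4 libraries, and Jchain, the joining chain of secreted antibody, had 5 and 0 reads against 38 and 21. Without knockout-labelled replicate 1 or 2, 3 of the genes rose, and without replicate 2 the call of Prdm1 was lost, so that 0 fell.

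Of the genes beside the 9, Cnpy3, a chaperone of Toll-like receptors that lies 3.45 kb from Ptcra, had normalized counts of 2380 and 2066 against 5955 and 5862 and rose 2.66-fold (limma adjusted p = 3.81e-05). The genes next to Cd79b, Gh and Scn4a, had 0 reads in all 4 libraries and in 3 of the 4, respectively. Opalin, 2.19 kb from Dntt on the other side from Blnk, was at 0 reads in all 4 libraries. Arhgef1, 0.715 kb from Cd79a, fell by 0.20 on the log2 scale, and Rnf145, beside Ebf1, fell by 0.34.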
